A study of Mus musculus with 4 samples.

Results

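The 8 genes of sphingosine-1-phosphate (S1P) signalling studied here were compared between endothelial cells (ECs) of the dura mater and ECs of the brain parenchyma. They were S1pr1, S1pr2, S1pr3 and S1pr5 (receptors), Sphk1 and Sphk2 (kinases), Spns2 (exporter) and Sgpl1 (lyase), which make 8 of the 23282 gene symbols listed for each library. The members are defined by symbol, as a pathway, with no measured value in the rule. ECs line the vessels, and both kinds were sorted from C57BL/6J mice aged 8 weeks, with no transgene or treatment in the labels and 2 libraries per tissue. The labels name strain, age, tissue and cell type but do not say how many mice gave a library or whether the 2 libraries of a tissue came from separate mice, so the p values measure only the spread between these libraries, which may be partly technical. The study sorted ECs by flow cytometry with antibodies to CD31, CD45 and TER-119, and brain ECs alone passed a magnetic CD31 enrichment before the sort, a step that cannot be told apart from the tissue. Libraries read the 3′ ends of polyadenylated transcripts, and levels are compared between libraries and not between genes.

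S1P is a lipid mediator made inside cells by phosphorylation of sphingosine, carried out of the endothelium by a dedicated exporter, and bound to carriers in blood and lymph. It acts on G protein-coupled receptors, of which the S1pr1 product is best known in ECs, where it holds junctions together and restrains sprouting. The lipid is destroyed by a lyase inside the cell or stripped of its phosphate, and the resulting sphingosine can return to ceramide.

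The libraries held 13518973 to 16096203 counts, and 9350 to 11803 symbols had at least 1 count. The 12 pan-endothelial markers checked were all at 64 or more counts in both tissues, with summed levels of 11347 and 13552 CPM (counts scaled to a common library size) in brain ECs and 10297 and 12720 CPM in dura mater ECs. Of the 8 leukocyte markers, Ptprc, which encodes CD45, had 1 to 4 counts in any library. Laptm5 had 1377 and 12 counts in the brain replicates, then 204 and 133 in the dura mater replicates. Fcer1g had 6 and 17 counts in the brain replicates, then 610 and 173 in the dura mater replicates. The rest of these markers had 36 or fewer counts in any library. Replicates were far apart across the whole transcriptome: among the 9347 genes tested, the median ratio between the 2 libraries of a tissue was 2.43 for brain ECs and 2.11 for dura mater ECs.

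None of the 8 S1P genes passed the threshold between the tissues. The gene with the clearest separation was Spns2, the exporter, with a mean 4.20-fold higher in dura mater ECs. Both libraries of that tissue lay above both brain libraries, though the adjusted p of Spns2 did not pass. S1pr1, Sphk2 and Sgpl1 were counted in each of the 4 libraries, with tissues that overlapped. S1pr2, S1pr3 and Sphk1 were at 77 to 113 counts in dura mater replicate 2 and at 0 or 1 in each of the other 3 libraries, and S1pr5 was at 0 throughout. Of the 8 genes, 4 had enough counts to be tested, and 0 of these 4 differed at an adjusted p under 0.05 in edgeR's quasi-likelihood test, against 0.610% of all genes tested (0.428% higher in dura mater ECs and 0.182% lower). At an unadjusted p under 0.05 edgeR gave 1 of the 4 as higher in dura mater ECs, Spns2, and 0 as lower, against 7.04% and 2.97% of all genes tested, and DESeq2 and limma-voom each gave 0 at an adjusted p under 0.05. With 2 libraries against 2, an exact permutation test on a single gene cannot go below p = 0.333, so no such test was used. In sorted bulk RNA, fewer cells of a type and less RNA per cell cannot be told apart.

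**Figure D1:**
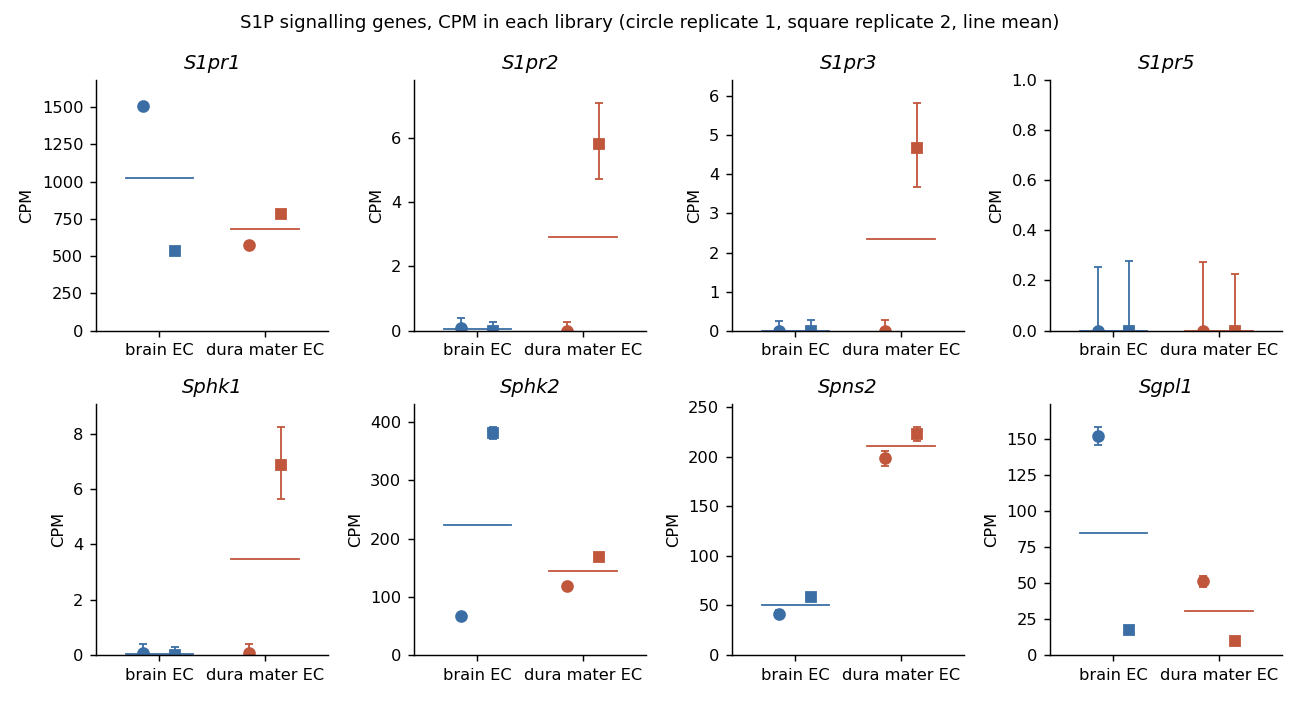
Levels in CPM (vertical axis) of the 8 S1P genes in each library of brain ECs (blue) and dura mater ECs (red), with circles for replicate 1, squares for replicate 2, a line at the group mean and bars for the exact 95% interval of the count. Spns2 separates the tissues (41.7 and 58.4 against 198 and 223 CPM), while S1pr2, S1pr3 and Sphk1 stand above 1 CPM in dura mater replicate 2 alone.

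The stretches around the transcription starts of 4 of these genes are shown because the genes fall into the contrasting patterns of the data: Spns2 separated the tissues, Sphk2 was counted in every library, and S1pr2 and S1pr3 were counted above 1 read in 1 library only. Capitals mark CpG dinucleotides, which are dense at the starts of many broadly used genes. Each stretch runs from 250 bases before to 50 bases after a RefSeq start (GRCm38.p6), 5′ to 3′ on the gene's strand. A RefSeq stretch was matched by symbol for 7 of the 8 members, all but S1pr1. The positions are chr11:72474978-72475277 (minus strand) for Spns2, chr7:45717953-45718252 (minus strand) for the first of 2 Sphk2 stretches, chr9:20976744-20977043 (minus strand) for S1pr2 and chr13:51408368-51408667 (plus strand) for S1pr3.
Spns2: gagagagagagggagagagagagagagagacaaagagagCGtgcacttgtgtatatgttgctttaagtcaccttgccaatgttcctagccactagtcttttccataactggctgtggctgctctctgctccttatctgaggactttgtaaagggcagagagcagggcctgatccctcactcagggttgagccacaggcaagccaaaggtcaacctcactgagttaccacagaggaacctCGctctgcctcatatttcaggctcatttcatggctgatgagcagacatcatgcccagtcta
Sphk2: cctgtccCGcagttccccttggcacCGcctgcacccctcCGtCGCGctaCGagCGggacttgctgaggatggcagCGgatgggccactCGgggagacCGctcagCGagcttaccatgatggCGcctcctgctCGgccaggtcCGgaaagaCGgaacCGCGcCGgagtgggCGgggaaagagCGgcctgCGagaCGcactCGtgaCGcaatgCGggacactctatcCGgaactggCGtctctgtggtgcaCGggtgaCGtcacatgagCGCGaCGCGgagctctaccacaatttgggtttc
S1pr2: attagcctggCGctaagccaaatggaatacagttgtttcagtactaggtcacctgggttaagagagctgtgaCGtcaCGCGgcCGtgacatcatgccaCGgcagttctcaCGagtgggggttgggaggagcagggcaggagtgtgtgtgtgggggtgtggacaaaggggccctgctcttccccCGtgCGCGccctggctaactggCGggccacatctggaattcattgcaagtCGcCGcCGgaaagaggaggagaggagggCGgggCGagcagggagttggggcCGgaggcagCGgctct
S1pr3: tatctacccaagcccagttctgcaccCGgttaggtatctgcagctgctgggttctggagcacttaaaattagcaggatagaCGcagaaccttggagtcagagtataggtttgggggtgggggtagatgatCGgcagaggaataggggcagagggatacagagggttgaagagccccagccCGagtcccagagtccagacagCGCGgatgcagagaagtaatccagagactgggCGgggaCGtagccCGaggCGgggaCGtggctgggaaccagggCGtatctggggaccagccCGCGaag

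The Spns2 stretch had 2 CpG, a number reached or exceeded by 85.9% of the 32851 stretches in the RefSeq table, and a GC content of 50.3%. The RefSeq start of Spns2 used here lies 14877 bases inside the longer gene model of GENCODE M21, so other starts of this gene were not covered. The Sphk2 stretch had 33 CpG (8.56% of stretches had as many) and the S1pr2 and S1pr3 stretches had 18 (29.7%) and 14 (36.3%). Sgpl1, which is not printed, had 38 CpG (4.95%). The GC box GGGCGG, searched on both strands, was present in the stretches of Sphk2, S1pr2, S1pr3, S1pr5 and Sgpl1 and in 35.7% of all stretches. It was not present in that of Spns2 or in any of the 5 stretches of Sphk1. The TATA motif TATAAA, searched on both strands, was found in the first Sphk1 stretch and in 13.6% of all stretches. These matches describe the letters in the window and do not show that a factor binds.

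Among the receptors, S1pr1 (chromosome 3, 115710433 to 115715072, minus strand, GRCm38) was counted deeply in each library. It couples to inhibitory G proteins and is the main S1P receptor of ECs. Its level was 1511 and 531 CPM in brain replicates 1 and 2, and 578 and 783 CPM in dura mater replicates 1 and 2. Both dura mater values lay between the 2 brain values, so the tissues overlapped, and brain replicate 1 was highest. The means were 1021 ± 693 CPM for the brain and 680.2 ± 145 CPM for the dura mater (SD, n = 2), a log2 fold change of −0.59 for dura mater over brain (SE 0.53, edgeR adjusted p 0.946). The 2 brain libraries differed by 2.84-fold, more than the 1.501-fold between the tissues. Without brain replicate 1 the log2 fold change turned to 0.30, and without brain replicate 2 it was −1.22. The gene model has a single coding exon, and no exon of another gene overlaps it on either strand.

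S1pr2 (chromosome 9, 20962361 to 20976781, minus strand), a receptor that opposes the S1pr1 product in migration, had 1 and 0 counts in the brain replicates, then 0 and 96 in the dural ones. S1pr3 (chromosome 13, 51408639 to 51422797, plus strand), a receptor found in ECs and smooth muscle of many vessels, had 0 counts in either brain library, then 0 and 77 in the dural ones. The value of dura mater replicate 2 was 5.83 CPM for S1pr2 (exact 95% binomial interval 4.72 to 7.12) and 4.68 CPM for S1pr3 (3.69 to 5.84). These intervals cover counting error only. In dura mater replicate 1 a count of 0 allows at most 0.222 CPM (3 counts), if each read came from a separate molecule. The use of molecular identifiers is not given, so whether the genes were absent there was not tested. No fold between the tissues is given, because 1 of the 2 dura mater libraries was itself at 0. S1pr5 (chromosome 9, 21242912 to 21248443, minus strand), a receptor known from natural killer cells and oligodendrocytes, had 0 counts in all 4 libraries, as had 41.3% of all symbols, which allows up to 0.182 to 0.225 CPM at 3 counts (exact 95% upper limits, drawn as bars in the plot of levels by library, 0.224 to 0.276 CPM). All 5 natural killer cell markers were at 0 in each library. Of the 6 oligodendrocyte markers, Mag and Mobp were at 0 throughout, while Mbp had 1476 and 4 counts in the brain replicates, then 1027 and 6 in the dural ones.

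The same pattern held for the kinase Sphk1 (chromosome 11, 116530925 to 116536674, plus strand), the cytosolic and inducible form. It had 1 and 0 counts in the brain replicates, then 1 and 113 in the dural ones, or 6.86 CPM in dura mater replicate 2 (exact 95% binomial interval 5.65 to 8.25). These 3 genes, S1pr2, S1pr3 and Sphk1, thus shared the library in which they were counted. That library was also the deepest, and 1208 of all 23282 symbols (5.19%) were at 64 or more counts there and at 7 or fewer in each of the other 3. The corresponding shares were 0.636% for brain replicate 1, 0.524% for brain replicate 2 and 1.31% for dura mater replicate 1. The part of the library in the pattern of the 3 genes was not tested.

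Sphk2 (chromosome 7, 45709467 to 45718002, minus strand), the kinase form found in the nucleus and at internal membranes, was counted in every library. Its level was 66.2 and 382 CPM in the brain replicates, then 118 and 169 CPM in the dural ones. The lowest and the highest values were both from the brain, 5.76-fold apart, with the dura mater values between them. The means were 224 ± 223 and 144 ± 36.0 CPM (SD, n = 2), a log2 fold change of −0.64, with SE 0.85 and 1.00 as the edgeR adjusted p. Leaving out brain replicate 2 turned the log2 fold change to 1.05, and leaving out brain replicate 1 gave −1.46. The gene overlaps Dbp and Rpl18 on the other strand, over up to 12.96% of its exon length, and no source states that strand was used in counting, so its counts are uncertain. Dbp was at 66.1 and 187 CPM in the brain replicates, then 60.3 and 110 CPM in the dural ones, also highest in brain replicate 2. Rpl18 was at 72.5 and 115 CPM in the brain replicates, then 124 and 180 CPM in the dural ones, and its part in the Sphk2 counts was not tested.

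Spns2 (chromosome 11, 72451638 to 72489904, minus strand) encodes the transporter by which ECs release S1P into lymph and blood. It was at 610 and 779 counts in the brain replicates, then 2680 and 3667 in the dural ones, or 41.7 and 58.4 CPM against 198 and 223 CPM. The lowest dura mater value was 3.39 times the highest brain value, and the libraries of a tissue differed by 1.40-fold in the brain and 1.12-fold in the dura mater. The means were 50.04 ± 11.8 CPM and 210.4 ± 17.4 CPM (SD, n = 2), a log2 fold change of 2.07, with SE 0.64 and 0.391 as the edgeR adjusted p. Both dura mater libraries were above both brain libraries for 26.2% of all genes tested, so the separation alone does not set Spns2 apart from other genes. The log2 fold change stayed between 1.80 and 2.27 under 17 alternative settings, and its adjusted p ran from 0.0613 to 0.799. Scaled to the summed counts of the pan-endothelial markers in place of the library size, it was 2.20.

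Antisense exons of Mybbp1a cover 3.21% of the exon length of Spns2. Mybbp1a was at 16.3 and 84.5 CPM in the brain replicates, then 90.2 and 38.4 CPM in the dural ones. Its part in the Spns2 counts was not tested. Markers of other vessels and cells separated the tissues too. The 7 lymphatic markers summed to 122 and 143 CPM in the brain replicates, then 429 and 640 CPM in the dural ones. Prox1, Lyve1, Ccl21a and Mmrn1 were at 0 in both brain libraries and counted in both dura mater libraries. Flt4 was counted in every library, at 1777 and 1905 counts in the brain replicates, then 2384 and 4018 in the dural ones. Pdpn (3 and 7 counts, then 3 and 45) and Reln (1 and 0, then 0 and 502) had 7 or fewer counts outside dura mater replicate 2. The 6 fibroblast markers summed to 2513 and 2206 CPM in the brain replicates, then 11093 and 11126 CPM in the dural ones, mostly from Mgp. Col1a1 (20 and 42 counts, then 759 and 1237), Col1a2 (4 and 31, then 1135 and 1913) and Dcn (16 and 15, then 1184 and 1664) were also higher in both dura mater libraries, while Lum and Pdgfra were at 0 to 4 counts throughout. The 6 astrocyte markers summed to 51.2 and 7.87 CPM in the brain replicates, then 415 and 159 CPM in the dural ones, mostly from Gja1. Slc1a2 (1 and 0 counts, then 863 and 87) and Slc1a3 (1 and 1, then 915 and 74) were also higher in both dura mater libraries. Gfap had 3 and 0 counts in the brain replicates, then 189 and 0 in the dural ones. Aldh1l1 had 1 or fewer counts in any library, and Aqp4 was at 0 throughout. The 6 erythroid markers separated the tissues the other way, with 17855 and 25466 CPM in the brain replicates, then 1483 and 755 CPM in the dural ones. The part of lymphatic ECs, fibroblasts, astrocytes or red cells in the Spns2 difference was not tested.

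Sgpl1 (chromosome 10, 61098642 to 61147703, minus strand), the lyase that irreversibly cleaves S1P in the endoplasmic reticulum, was the most variable of the 4 tested genes. It was at 152 and 17.4 CPM in the brain replicates, then 51.1 and 9.59 CPM in the dural ones. Replicate 1 was higher than replicate 2 in both tissues, by 8.73-fold in the brain and 5.32-fold in the dura mater, and the tissues overlapped. The replicate numbers are not stated to mark a shared mouse or day. The means were 84.6 ± 95.01 and 30.3 ± 29.3 CPM (SD, n = 2), a log2 fold change of −1.48, with SE 1.55 and 0.983 as the edgeR adjusted p. It reached −3.26 without dura mater replicate 1 and turned to 0.78 without brain replicate 1. No exon of another gene overlaps Sgpl1.

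**Figure D2:**
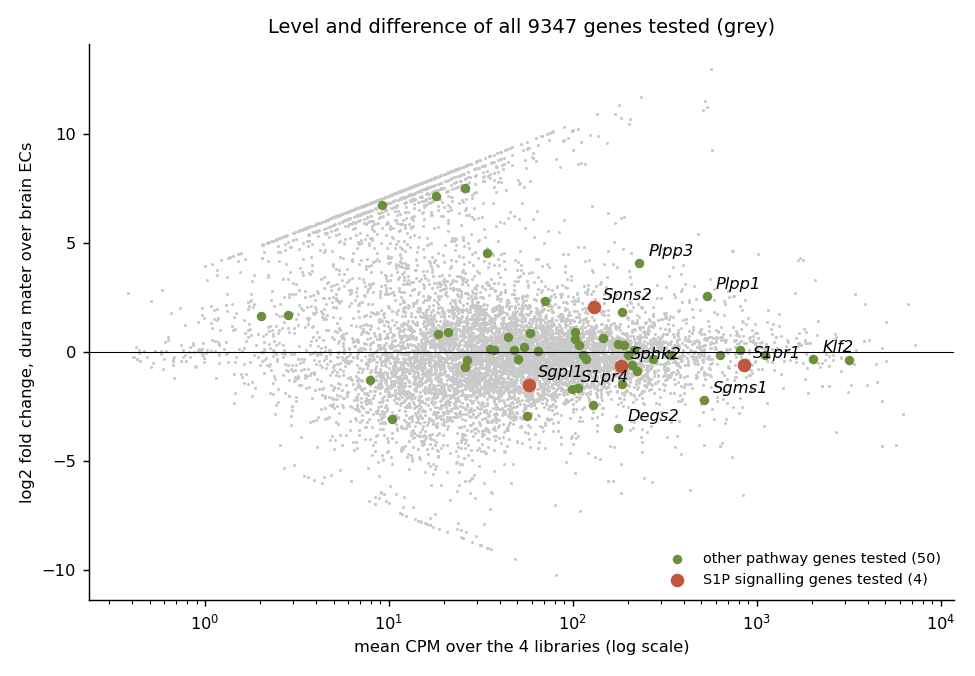
Mean CPM over the 4 libraries (horizontal axis, log scale) against the log2 fold change of dura mater over brain ECs (vertical axis) for the 9347 genes tested (grey), the 4 tested S1P genes (red) and 50 tested genes of related lists (green). Spns2 lies at 2.07 and S1pr1, Sphk2 and Sgpl1 below 0, and all 4 lie within the spread of the other genes.

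The profiles of the members over the 4 libraries were set beside those of all genes tested, as a description. The measure was the mean absolute difference of log2(CPM + 1) after subtraction of each gene's mean. For Spns2 the closest of 9346 genes were Wdr38 (0.04), at 152 and 186 counts in the brain replicates, then 714 and 976 in the dural ones, and the nucleoside transporter gene Slc29a1 (0.08), and these were the 2 genes within 0.1. S1pr1 was closest to Slc25a44 (0.06) and Rbpms (0.07), with 8 genes within 0.1, and Sphk2 to Ndufa12 and 1810058I24Rik (0.06 each), with 3. Sgpl1 had no gene within 0.1, and its closest were Zmym4 (0.21) and Phyhipl (0.28). For S1pr2, S1pr3 and Sphk1 the closest tested genes were Ltbp1, Casp8 and Paip1 (0.12 to 0.23), which were likewise highest in dura mater replicate 2.

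Of the remaining S1P genes, the fifth receptor S1pr4 (chromosome 10, 81497747 to 81500132, minus strand), which is known from lymphocytes, was counted in every library. It was at 127 and 175 CPM in the brain replicates, then 27.2 and 66.4 CPM in the dural ones, so both brain libraries were above both dura mater libraries (16.9% of all genes tested). The means were 151 ± 34.1 and 46.8 ± 27.7 CPM (SD, n = 2), a log2 fold change of −1.68, with SE 0.84 and 0.536 as the edgeR adjusted p. Without dura mater replicate 2 the log2 fold change was −2.48. The leukocyte marker Ptprc was at 1 to 4 counts in the same libraries, and the 8 leukocyte markers summed to 95.6 and 5.39 CPM in the brain replicates, then 64.3 and 21.7 CPM in the dural ones. The gene model of S1pr4 is a single exon, and no exon of another gene overlaps it on either strand. Ncln, on the same strand, begins 1355 bases past the 3′ end of S1pr4 and runs away from it. Ncln was at 5 and 77 counts in the brain replicates, then 1490 and 518 in the dural ones.

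The list of the other receptor, carriers and receptor partners held 7 genes. Apom and Alb, which encode plasma carriers of S1P, Mfsd2b, the exporter of red cells and platelets, and Cd69, whose product removes the S1pr1 receptor from the surface of lymphocytes, were at 0 in each library. The other 3 were tested and 0 passed. Klf2, a transcription factor induced by flow, was at 2116 and 2368 CPM in the brain replicates, then 1633 and 1971 CPM in the dural ones. Cib1, which brings the Sphk1 kinase to membranes, was at 17.9 to 56.8 CPM, with tissues that overlapped.

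The 5 other lists held 70 genes, of which 59 had a count and 50 were tested. In edgeR 0 of the 50 differed at an adjusted p under 0.05 (0.610% of all genes tested), and 8 had an unadjusted p under 0.05. At that unadjusted p, the dura mater was higher for 4 of the 50 and lower for another 4, against 7.04% and 2.97% of all genes tested. DESeq2 called 6 of the 50 at an adjusted p under 0.05 (8.67% of all genes tested) and limma-voom 2 (0.856%). The median log2 fold change of the 50 was 0.11, against −0.01 over all genes tested.

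The turnover list, the enzymes that make and remove S1P and ceramide, held 6 of the 8 genes with an unadjusted p under 0.05. Of its 20 genes, 16 were tested, 10 with a log2 fold change above 0 and 6 below, with a median of 0.37. Its 2 lipid phosphate phosphatase genes with the most counts, Plpp1 and Plpp3 (listed under the older symbols Ppap2a and Ppap2b), encode surface enzymes that take the phosphate from S1P and related lipids. Plpp3 (chromosome 4, 105157347 to 105232764, plus strand) had levels of 16.5 and 33.6 CPM in the brain replicates, then 406 and 463 CPM in the dural ones. For Ppap2b the log2 fold change was 4.11 (SE 0.60), with an edgeR adjusted p of 0.0544, the smallest of the lists and just above the threshold. DESeq2 called it (adjusted p 1.4e-06) and limma-voom did not (0.131). Plpp1 (chromosome 13, 112800792 to 112867894, plus strand) had levels of 211 and 92.1 CPM in the brain replicates, then 956 and 885 CPM in the dural ones. For Ppap2a the log2 fold change was 2.60 (SE 0.50, edgeR adjusted p 0.127), with an adjusted p of 0.00011 in DESeq2 and 0.0262 in limma-voom. Antisense exons of Mtrex, listed as Skiv2l2, cover 25.8% of the exon length of Plpp1. The counts of Skiv2l2 were 1486 and 1137 in the brain replicates, then 1471 and 4550 in the dural ones. In both phosphatase genes the 2 dura mater libraries lay above both brain libraries.

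Sgms1 and Sgms2, also of the turnover list, lay the other way. Sgms1 (chromosome 19, 32122727 to 32389714, minus strand), a sphingomyelin synthase of the Golgi, was at 1006 and 687 CPM in the brain replicates, then 200.4 and 167 CPM in the dural ones, a log2 fold change of −2.20, with SE 0.40 and 0.103 as the edgeR adjusted p. DESeq2 called it (adjusted p 0.00012), as did limma-voom (0.0420). Its surface counterpart Sgms2 was at 198 and 236 CPM in the brain replicates, then 57.0 and 23.8 CPM in the dural ones (log2 fold change −2.42, edgeR adjusted p 0.378). Another pair of genes was near 0 in the brain: Ugcg, the glucosylceramide synthase, had 2 and 2 counts in the brain replicates, then 943 and 562 in the dural ones, and Acer3, an alkaline ceramidase, had 1 and 2 against 664 and 378. Their edgeR adjusted p values were 0.416 and 0.466. Acer2, a ceramidase of the Golgi that releases sphingosine, was at 377 and 123 CPM in the brain replicates, then 198 and 138 CPM in the dural ones, with tissues that overlapped (log2 fold change −0.57, edgeR adjusted p 1.00).

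The synthesis list held 17 genes, of which 13 were tested and 0 passed, with a median log2 fold change of 0.12. Degs2, which adds a hydroxyl group to dihydroceramide, was at 308 and 340.2 CPM in the brain replicates, then 2.59 and 55.3 CPM in the dural ones, a log2 fold change of −3.48, with SE 1.30 and 0.466 as the edgeR adjusted p. DESeq2 called it (adjusted p 0.0107) and limma-voom did not (0.309). Its log2 fold change was −2.69 without dura mater replicate 1 and −6.91 without dura mater replicate 2. An antisense gene, Evl, covers 10.8% of its exon length. The ceramide synthase Cers5 was at 282 and 262 CPM in the brain replicates, then 63.4 and 135 CPM in the dural ones (log2 fold change −1.45 with SE 0.59, and 0.466 as the edgeR adjusted p). Cers2, the ceramide synthase of very long acyl chains, kept to 174 to 224 CPM in the 4 libraries. Cers1 ranged from 126 to 284 CPM and shares exons with Gdf1 over 42.5% of its exon length, so its counts are uncertain.

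The list of receptor coupling and effectors held 19 genes, of which 15 were tested and 0 passed, with a median log2 fold change of −0.10. Its 4 genes with the most counts varied little. Gnai2, an inhibitory G protein subunit through which the S1pr1 product acts, was at 3483 and 3539 CPM in the brain replicates, then 2852 and 2738 CPM in the dural ones. Rhoa ranged from 541.5 to 686 CPM, Rac1 from 834 to 1391 CPM and the kinase gene Akt1 from 634 to 963 CPM, each with tissues that overlapped. Antisense exons of Daglb cover 51.4% of the exon length of Rac1, so its counts are uncertain.

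Lysophosphatidic acid is a sister lipid with receptors of related structure, and its list of 7 genes had 3 tested and 0 that passed. Enpp2, which encodes the secreted enzyme autotaxin that makes this lipid, was at 144 and 17.6 CPM in the brain replicates, then 379 and 199 CPM in the dural ones (log2 fold change 1.83 with SE 0.99, and 0.598 as the edgeR adjusted p). It passed in 1 of 17 alternatives, without brain replicate 1 (log2 fold change 3.99, edgeR adjusted p 1.6e-05), and was at 0.95 without brain replicate 2 (0.521) and 1.16 without dura mater replicate 1 (0.907). The receptor gene Lpar6 was at 130 and 194 CPM in the brain replicates, then 22.2 and 83.1 CPM in the dural ones (log2 fold change −1.62 with SE 0.89, and 0.6105 as the edgeR adjusted p). Its log2 fold change was −1.10 without dura mater replicate 1 and −2.87 without dura mater replicate 2. It lies within Rb1, whose exons overlap 7.56% of its exon length on the other strand. Lpar4 ranged from 12.8 to 33.6 CPM with tissues that overlapped, Lpar1 had 164 counts in dura mater replicate 1 and 7 or fewer in each other library, and Lpar2, Lpar3 and Lpar5 were at 0 throughout.

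**Figure D3:**
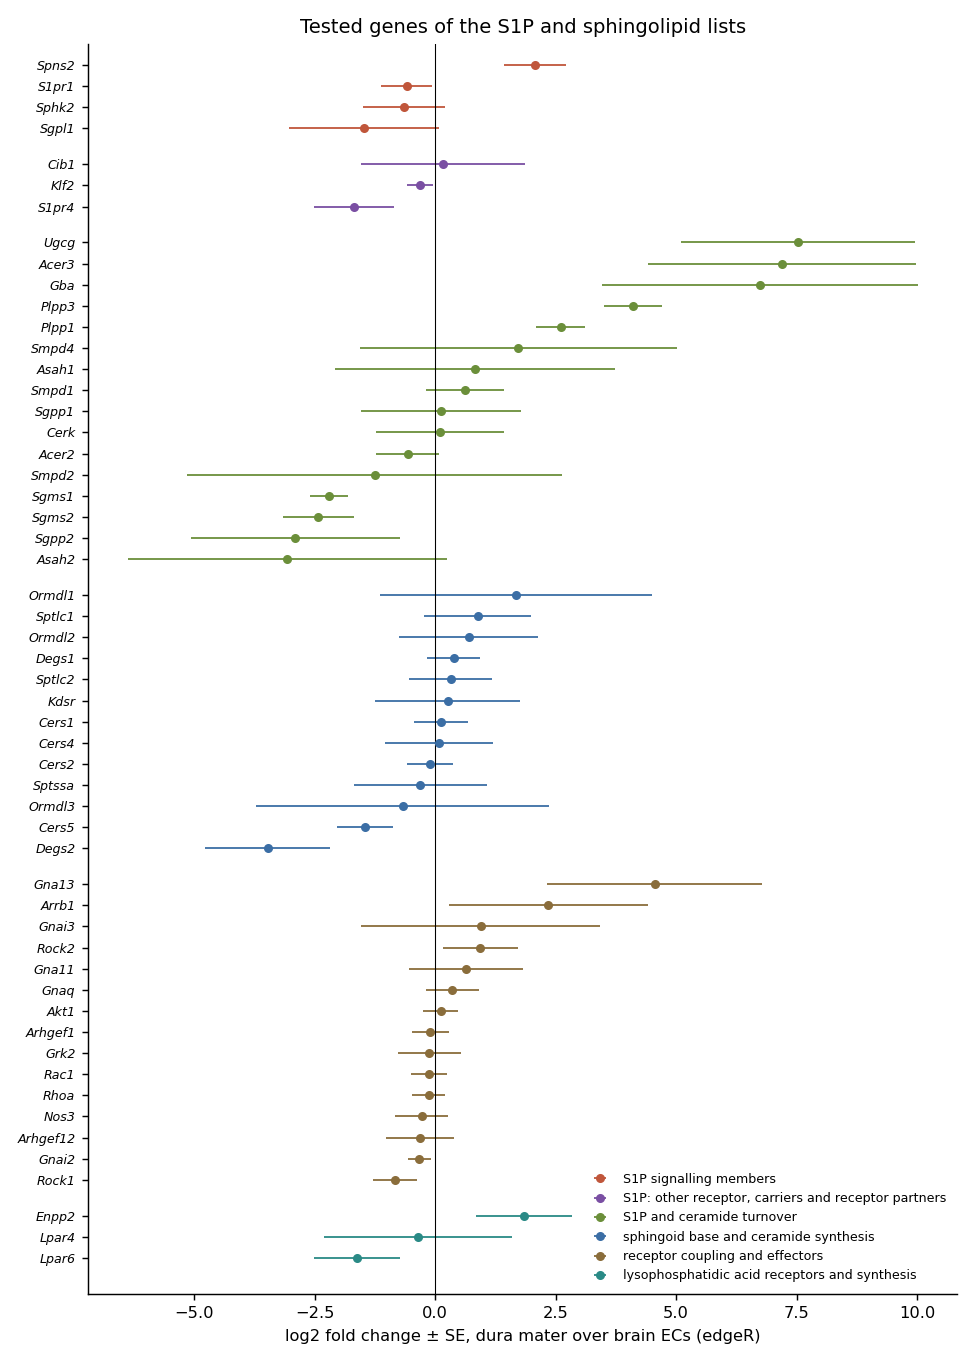
Log2 fold change of dura mater over brain ECs (horizontal axis) with its SE (bars) for the 4 tested S1P genes and the 50 tested genes of the 5 related lists, coloured by list. Plpp3, Plpp1 and Spns2 lie to the right and Sgms1, Sgms2 and Degs2 to the left, and none of the 54 genes passed at an adjusted p under 0.05.

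The directions of the 4 tested S1P genes were then followed over all settings. Under the settings that kept all 4 libraries, S1pr1 stayed between −0.68 and −0.41, Sphk2 between −0.75 and −0.10, Spns2 between 1.98 and 2.21, and Sgpl1 between −1.57 and −1.21. With 1 library left out, S1pr1, Sphk2 and Sgpl1 each changed sign once, in each case when a brain library was removed. Spns2 kept its sign in each of these fits.

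**Figure D4:**
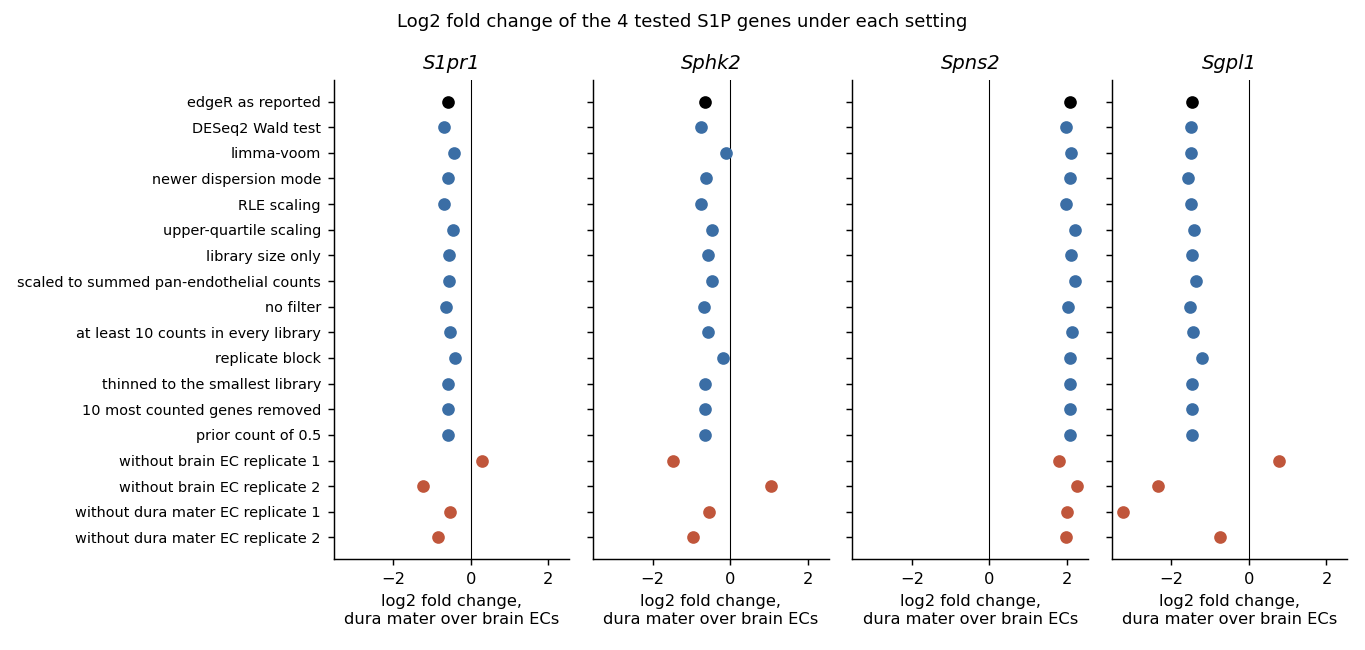
Log2 fold change of dura mater over brain ECs (horizontal axis) of S1pr1, Sphk2, Spns2 and Sgpl1 in the edgeR fit as reported (black), under other settings (blue) and with 1 library left out (red). Spns2 stays between 1.80 and 2.27, while S1pr1, Sphk2 and Sgpl1 cross 0 when 1 brain library is left out.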

How the data were processed

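Gene expression was measured by 3′ RNA sequencing (QuantSeq) in 2 libraries of brain ECs and 2 of dura mater ECs, grouped and numbered by the sample titles. The authors deposited raw counts per gene symbol, 1 table per library, with totals of 13518973 to 16096203. The submitters' processing notes name Bowtie2, edgeR and mm10, while the study's methods name TopHat and cufflinks. The counting step, its annotation, the use of strand and of molecular identifiers are not given in the sources used here.

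Counts were tested in R 4.3.3 by edgeR 4.0.16 (quasi-likelihood F-test) with TMM normalization, filterByExpr, tissue as the only term, a prior count of 2 and Benjamini-Hochberg adjustment over all 9347 genes tested. This stands in for cufflinks, which needs alignments. CPM are counts scaled to 1000000 of the TMM-adjusted library size, and SE is the size of the log2 fold change over the square root of F. A count of 0 was read as at most 3 counts. Intervals are exact binomial at the 95% level. The members and lists were chosen with earlier results of these data known. Named were all members and, from each list, any gene that passed plus the 4 counted most, and the 2 closest profiles of each member at 64 or more counts in some library. The others named (Sgms2, Ugcg, Acer3, genes at 0, cell type markers, overlapping and neighbouring genes) were chosen after their values were seen. Log2 fold changes are given for members and for genes with a size of at least 0.5. Positions are from GENCODE M21 (GRCm38, the assembly of mm10), matched on symbol. The annotation behind the counts may differ. The fits were tested on simulated data. With all genes given the common spread of these data, edgeR and limma-voom recovered none of the changed genes. DESeq2 there made more false calls than true ones. With all genes given a much smaller spread, each tool recovered nearly all of them with few false calls. In the data the spread differs by gene, so neither setting gives the power for a named gene. With 2 libraries per tissue, a gene that did not pass is not shown to be equal between the tissues. DESeq2 1.42.0 and limma-voom (limma 3.58.1) were alternatives. Further alternatives were other scalings, filters and dispersion modes, thinning, a replicate block, removal of the most counted genes, and each library left out.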

Additional observations from a re-analysis of the deposited data

How the results depend on the processing

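Of the S1P genes that could be tested, 4 in edgeR and 4 to 7 under the 17 alternatives, 0 passed in each. S1pr5 was tested in none. Over all genes, 57 differed. That count was 810 in DESeq2, 305 with the newer dispersion mode of edgeR, 326 without a filter on low counts, 141 with at least 10 counts in every library and 224 with the replicate block, and it ran from 80 to 740 with 1 library left out. All libraries kept, 9347 genes were tested, but 13660 without a filter, 4787 with at least 10 counts in every library and 9352 after thinning. For the genes of the 5 other lists (0 of 50 passed) the counts were 6 of 50 in DESeq2 and 2 of 50 in limma-voom (80 of all genes). The counts were 4 of 50 with the newer dispersion mode, 4 of 59 without a filter and 3 of 38 with at least 10 counts in every library. The counts were 1 of 50 each with upper-quartile scaling (70 of all genes), scaling to pan-endothelial counts (73) and thinning to the smallest library (75). They ran from 0 to 7 with 1 library left out, the highest without brain replicate 1. In DESeq2 the 6 were Ppap2a, Ppap2b, Acer3, Ugcg, Sgms1 and Degs2. With the replicate block 4 list genes passed (Ppap2a, Ppap2b, Sgms1 and Degs2) and 0 members did. Equal numbers were not treated as pairs: over genes, the departures from the tissue means in same-numbered libraries had a correlation of −0.0153.

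Direction turned in 4 of 221 refits of single genes, each with 1 brain library left out: S1pr1 (log2 fold changes from −1.22 to 0.30 with 1 library left out), Sgpl1 (−3.26 to 0.78), Acer2 (−1.22 to 0.41) and Sphk2 (−1.46 to 1.05). S1pr1, Sgpl1 and Acer2 turned without brain replicate 1, and Sphk2 without brain replicate 2. The cause was not tested. Without a filter on low counts S1pr2, S1pr3 and Sphk1 could be fitted, with edgeR adjusted p from 0.793 to 0.826. Where a tissue is left with 1 library, that library is assumed to vary like the other tissue. The counting interval of Spns2 in dura mater replicate 2 was 215 to 230.0 CPM. For S1pr5 a count of 0 allows up to 0.225 CPM.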
